A study of Caenorhabditis elegans with 12 samples.

Results

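Whole Caenorhabditis elegans carrying an active form of the kinase subunit AAK-2 were set directly against animals carrying an altered form of the coactivator CRTC-1. The 6 libraries of these 2 strains, out of 12 in the series, give 10532 genes whose CPM, a read count scaled to a common library size, averages 5 or more over the 6 libraries, out of 14505 in the deposited tables; the other 3973 genes were below that level. The CA-AAK-2 strain (WBM60) carried CA-AAK-2 alone. The CA-CRTC-1 strain (WBM55) carried CRTC-1 with the changes S76A and S179A. A strain with both (WBM66, called the double strain here) and the wild type N2 are used below only to place the 2 single strains. Each group has 3 biological replicates, per the series text. All animals were grown at 20 degrees on the OP50-1 strain of E. coli from synchronised first-stage larvae and collected as L4 larvae, the last larval stage. The promoter, construct and expressing cells of each transgene are not given in the sources used here.

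AAK-2 is 1 of the catalytic subunits of AMPK, the AMP-activated protein kinase, which is switched on when cellular energy is low and adjusts metabolism towards fuel use. CRTC-1 is the CREB-regulated transcriptional coactivator of the worm, which works with the transcription factor CRH-1. AMPK phosphorylates CRTC proteins and so keeps them out of the nucleus, whereas calcineurin, a calcium-dependent phosphatase, removes these phosphates. Replacing the serines that are phosphorylated frees CRTC-1 from this control, so the 2 strains carry changes at successive steps of 1 pathway, upstream and downstream.

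The libraries hold 32359604 to 48989013 counted reads in CA-AAK-2 and 37228043 to 48778865 in CA-CRTC-1, and 1 read is worth 0.0178 to 0.0285 CPM across the series. Markers of body-wall muscle (unc-54), intestine (elt-2), neurons (snb-1) and germ line (pgl-1) were present in all 6 libraries. In such samples, fewer cells of a type and less RNA per cell cannot be told apart. A small offset in developmental time between the strains likewise cannot be told apart from their genotype.

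Both transgenes were visible in the RNA. aak-2 reached 2440, 2509 and 2640 CPM in CA-AAK-2, against 60.14, 61.1 and 69.8 CPM in CA-CRTC-1. The N2 mean was 61.7 CPM, so only the strain labelled CA-AAK-2 stood apart among these 3. The direct difference, CA-AAK-2 minus CA-CRTC-1 in log2(CPM + 0.5), was 5.30 ± 0.08 (SE, n = 3 against 3; limma, adjusted p = 9e-15). crtc-1 lay at 19.2, 17.7 and 23.2 CPM in CA-AAK-2 and at 183, 177 and 207 CPM in CA-CRTC-1. Its N2 mean was 20.5 CPM, and its direct difference was -3.21 ± 0.10 (adjusted p = 8.4e-11). The counts do not separate a transgene's transcripts from those of the native gene.

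A gene was called where the adjusted p was at most 0.01 and the change at least 1.5-fold. This gave 745 genes, 7.07% of those tested. 169 were higher in CA-AAK-2 (1.6%) and 576 were lower (5.47%), while the median difference over all genes was 0.06. Of the genes changed by more than 2-fold, 38 were higher and 281 were lower in CA-AAK-2. An unadjusted p under 0.05, used below beside lists with no call, was reached by 4485 of the 10532 genes (42.6%). All 745 called genes had 3 CA-AAK-2 values that did not overlap the 3 CA-CRTC-1 values, as did 45.8% of all genes tested. With any 1 of the 6 libraries left out, 76 of the 169 higher genes (45%) and 366 of the 576 lower genes (63.5%) were still called.

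**Figure D1:**
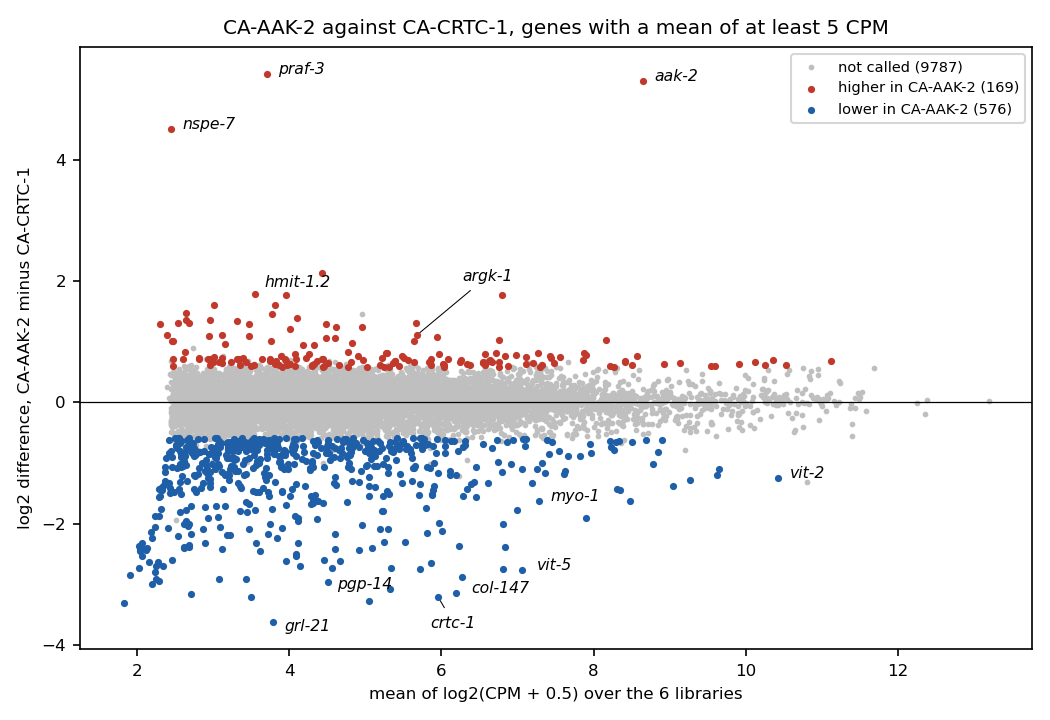
Each point is a gene, with the mean of log2(CPM + 0.5) over the 6 libraries on the x axis and the log2 difference, CA-AAK-2 minus CA-CRTC-1, on the y axis; red points are the 169 genes called higher in CA-AAK-2, blue points the 576 called lower and grey points the rest. The blue points reach -3.62 (grl-21), whereas praf-3, aak-2 and nspe-7 are the 3 red points above 4.

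Against N2 as a common base, the strains gave 1306 calls of 10368 genes in CA-AAK-2 (12.6%) and 924 of 10509 in CA-CRTC-1 (8.79%). CA-AAK-2 had 850 higher (8.2%) and 456 lower (4.4%), and CA-CRTC-1 had 696 higher (6.62%) and 228 lower (2.17%). Scaling by the median ratio turned these splits to 518 higher and 701 lower in CA-AAK-2, and 574 higher and 357 lower in CA-CRTC-1, whereas the direct split stayed at 154 higher and 594 lower. The N2 comparisons share their N2 libraries, so their values are given side by side only. For 356 of the 576 genes lower in CA-AAK-2 (61.8%), the N2 mean lay nearer to CA-AAK-2 than to CA-CRTC-1. The double strain lay nearer to CA-CRTC-1 for 441 of these 576 genes (76.6%). For the 169 genes higher in CA-AAK-2, the N2 mean lay nearer to CA-AAK-2 for 57 (33.7%), and the double strain lay nearer to CA-CRTC-1 for 83 (49.1%). N2 lay at least 1.5-fold below both strains for 83 of the 576 and at least 1.5-fold above both for 10. These placements of N2 and the double strain used the deposited scaling only. The same shares over all genes tested were not computed, so the counts are descriptions.

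Several of the largest falls in CA-AAK-2 were in genes that N2 also held at a low level. grl-21, which encodes a hedgehog-related ground-like protein, had 2.40, 5.62 and 2.93 CPM in CA-AAK-2, against 39.6, 64.5 and 42.7 CPM in CA-CRTC-1. Its N2 mean of 3.32 CPM was close to that of CA-AAK-2, and the double strain averaged 95.7 CPM. The direct difference was -3.62 ± 0.25 (limma, adjusted p = 2.7e-07). The cuticle collagen gene col-147 stood at 14.3, 34.9 and 27.9 CPM in CA-AAK-2, against 274, 203 and 182 CPM in CA-CRTC-1. All 3 CA-CRTC-1 libraries were far above every CA-AAK-2 library, and the N2 mean was 26.4 CPM. The difference was -3.14 ± 0.27 (adjusted p = 1.6e-06). ptr-8, a patched-related gene, averaged 3.53 ± 1.17 CPM in CA-AAK-2 and 29.2 ± 4.64 CPM in CA-CRTC-1 (SD, n = 3 each), with 2.87 CPM in N2.

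**Figure D2:**
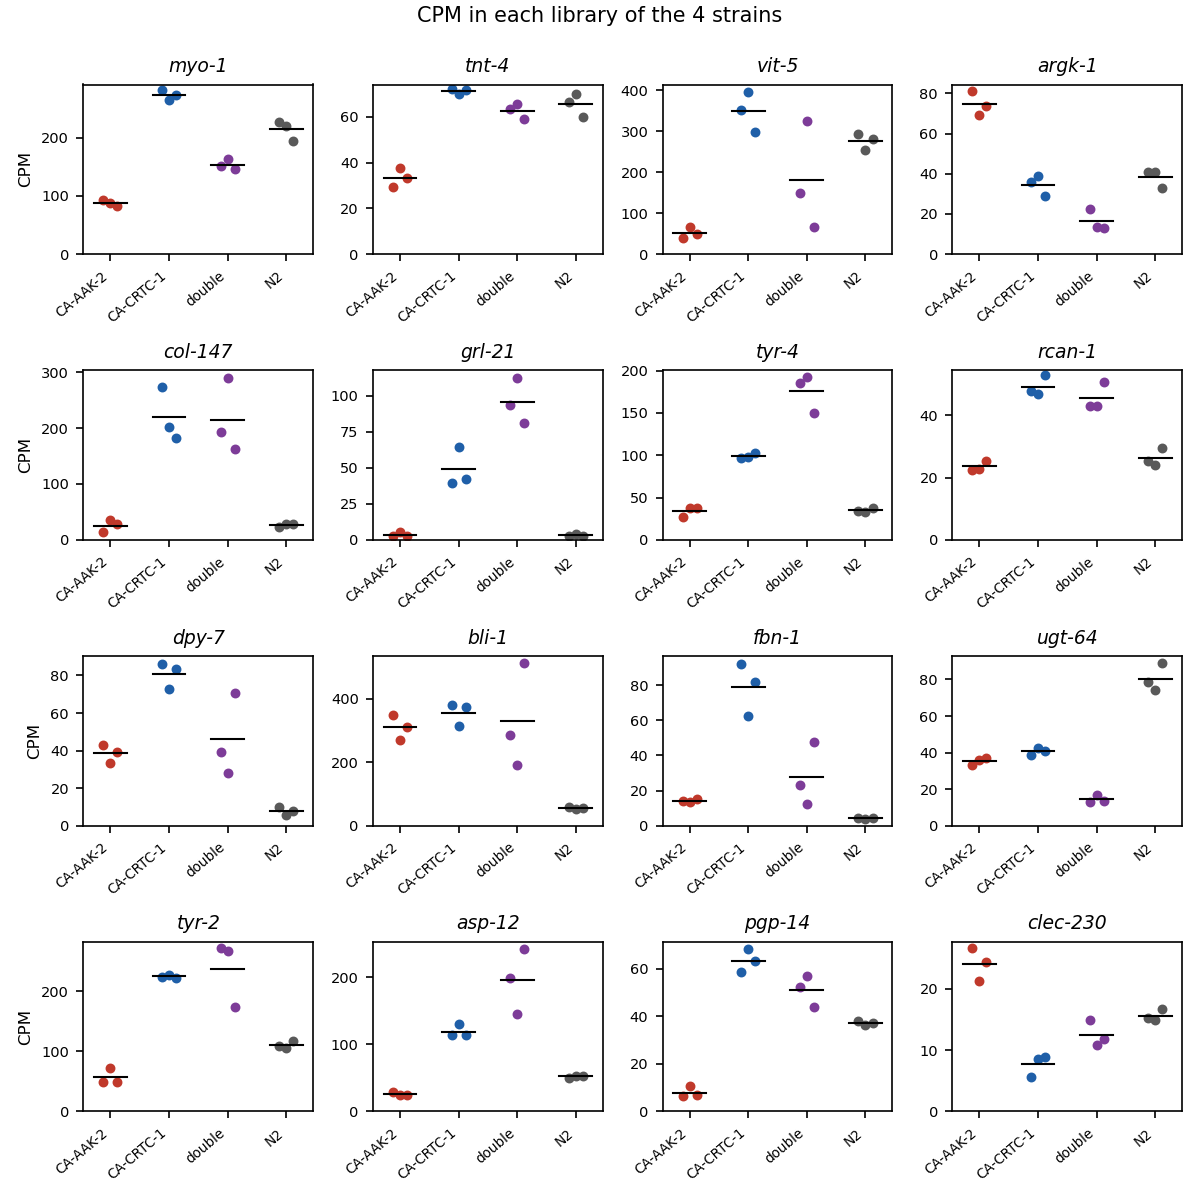
CPM of 16 genes in each library, 1 panel per gene with its own linear y axis from 0; points are the 3 libraries of a strain and bars their mean, in the order CA-AAK-2, CA-CRTC-1, double strain and N2. N2 sits with CA-AAK-2 for col-147, grl-21, tyr-4 and rcan-1, and with CA-CRTC-1 for tnt-4 and argk-1, whereas dpy-7, bli-1 and fbn-1 are above N2 in both strains and tyr-2, asp-12 and pgp-14 are below N2 in CA-AAK-2 and above it in CA-CRTC-1.

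Of 9 genes of CRTC-1, CREB, calcineurin and 14-3-3 proteins, 2 were lower in CA-AAK-2 and 0 higher, with a median of -0.13. Beside crtc-1 itself the call was rcan-1. rcan-1, which encodes a regulator of calcineurin, had 22.5, 22.9 and 25.3 CPM in CA-AAK-2, against 47.9, 46.9 and 53.0 CPM in CA-CRTC-1. The groups did not overlap, the N2 mean was 26.4 CPM and the double strain averaged 45.6 CPM. The direct difference was -1.05 ± 0.10 (limma, adjusted p = 3.2e-06). crh-1, the CREB gene itself, averaged 26.5 and 33.3 CPM in CA-AAK-2 and CA-CRTC-1, a difference of -0.33 ± 0.11 that was not called (adjusted p = 0.038). Of 12 AMPK subunit and upstream kinase genes tested, aak-2 alone was called. The other catalytic subunit gene, aak-1, averaged 55.14 CPM in CA-AAK-2 and 51.4 CPM in CA-CRTC-1, and par-4, which encodes the upstream kinase LKB1, 42.5 and 37.4 CPM.

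Tyrosinases, enzymes that oxidise tyrosine residues, gave 3 lower calls of 4 genes tested, with a median difference of -1.77. tyr-4 had 27.4, 37.4 and 37.9 CPM in CA-AAK-2, against 97.2, 98.2 and 102 CPM in CA-CRTC-1. CA-AAK-2 was at the N2 level of 34.8 CPM and every CA-CRTC-1 library was above it. The difference was -1.53 ± 0.12 (limma, adjusted p = 6.7e-07). tyr-1 averaged 2.84 CPM in CA-AAK-2 and 16.13 CPM in CA-CRTC-1, against 0.908 CPM in N2. Transthyretin-related genes, a large family of small secreted proteins, gave 11 lower and 0 higher calls of 34 (32.4%, against 7.07% of all genes). Their median was -0.15. ttr-26 averaged 5.32 CPM in CA-AAK-2 and 19.8 CPM in CA-CRTC-1, against 1.33 CPM in N2, and ttr-59 averaged 3.32 and 19.6 CPM, against 2.62 CPM in N2. The P-glycoprotein group of ABC transporters, which export lipids and foreign compounds, gave 5 lower and 0 higher calls of 9 (55.6%), with a median of -0.84. Among these, pgp-10 averaged 2.69 CPM in CA-AAK-2 and 10.6 CPM in CA-CRTC-1, against 2.01 CPM in N2.

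Defence genes moved in both directions. Of 25 antimicrobial peptide and infection response genes tested, 11 were lower and 4 were higher in CA-AAK-2 (60%, against 7.07% of all genes). Their median was -0.59, and without CA-CRTC-1 replicate 2 the lower count was 7. irg-5, an infection response gene, had 2.94, 3.51 and 3.18 CPM in CA-AAK-2, against 27.2, 33.5 and 41.6 CPM in CA-CRTC-1. The N2 mean of 1.99 CPM was below both, and the difference was -3.20 ± 0.33 (limma, adjusted p = 9.4e-06). nlp-27, a gene of the epidermal peptide cluster, averaged 8.51 ± 1.46 CPM in CA-AAK-2 and 33.4 ± 5.14 CPM in CA-CRTC-1 (SD, n = 3 each), against 5.84 CPM in N2. The 4 higher calls included nlp-30, another gene of that cluster, at 57.6, 79.0 and 75.3 CPM in CA-AAK-2, against 36.3, 39.4 and 28.6 CPM in CA-CRTC-1. The nlp-30 difference of 1.01 ± 0.15 (adjusted p = 0.00028) ran opposite to that of nlp-27, and its N2 mean of 57.4 CPM lay between the strains. fip-6, nlp-31 and nlp-34 were the other 3 higher calls, named with nlp-30 after their values were seen. Of 9 genes of lysozymes, enzymes that attack bacterial walls, 2 were lower (22.2%) and 0 higher in CA-AAK-2. The list median was -0.16, and 3 of the 9 had a difference above 0. The 2 calls were lys-5 and lys-6, at 2.62 and 6.75 CPM in CA-AAK-2, against 12.4 and 15.95 CPM in CA-CRTC-1.

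C-type lectins, sugar-binding proteins that many bacterial responses use, gave 5 higher and 6 lower calls of 56 (19.6%, against 7.07% of all genes). Their median was -0.15. clec-230 was the largest rise among them, at 26.6, 21.2 and 24.4 CPM in CA-AAK-2, against 5.63, 8.54 and 8.83 CPM in CA-CRTC-1. The difference was 1.61 ± 0.16 (limma, adjusted p = 5.5e-06). clec-53 averaged 6.21 CPM in CA-AAK-2 and 13.5 CPM in CA-CRTC-1, with no overlap. The higher lectin count was 3 to 4 whichever library was left out, with 3 without CA-AAK-2 replicates 2 and 3 or CA-CRTC-1 replicate 3.

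Of 21 pharyngeal genes tested, 7 were lower in CA-AAK-2 (33.3%, against 5.47% of all genes) and 0 higher, with a median of -0.27. Leaving out any 1 library gave 7 to 9 lower calls. The pharynx is the feeding pump, a muscular organ with its own contractile proteins and its own cuticle. Its myosin heavy chain gene myo-1 had 92.5, 88.6 and 83.2 CPM in CA-AAK-2, against 282, 264 and 274 CPM in CA-CRTC-1. Every CA-AAK-2 library was below every library of the other strain, and N2 averaged 214 CPM. The difference was -1.63 ± 0.07 (limma, adjusted p = 4.3e-09). The troponin T gene tnt-4 had 29.4, 37.5 and 33.4 CPM in CA-AAK-2 and 71.9, 69.7 and 71.7 CPM in CA-CRTC-1, with an N2 mean of 65.4 CPM. Its difference was -1.09 ± 0.09 (adjusted p = 1e-06). The rest of the 7 were pgp-14 and marg-1 with tnc-2, myo-5 and tni-4, which encode a troponin C, a myosin heavy chain and a troponin I; the last 3 are outside the naming rule. Another pharyngeal myosin gene, myo-2, averaged 222 CPM in CA-AAK-2 and 322 CPM in CA-CRTC-1, a difference of -0.55 ± 0.12 that was below the fold required. Against N2, the same list gave 6 lower and 0 higher calls in CA-AAK-2, and 0 lower and 2 higher calls in CA-CRTC-1. pha-4, which encodes the factor that specifies the organ, averaged 11.5 CPM in CA-AAK-2 and 13.8 CPM in CA-CRTC-1 and was not called (difference -0.24 ± 0.09).

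Of 38 body-wall sarcomere genes, 0 were called, although only 1 had a difference above 0. Their median was -0.21, against -0.27 for the pharyngeal list. Of the 38, 18 were lower in CA-AAK-2 without overlap, as were 19.8% of all genes. Of 67 body-wall sarcomere, synaptic and pan-neuronal genes, limma called 0 and edgeR called 0, although 37 had an unadjusted p under 0.05 and 63 had a difference below 0. Their median was -0.22, against 0.06 over all genes. unc-54, the main body-wall myosin, averaged 4898 CPM in CA-AAK-2 and 5632 CPM in CA-CRTC-1, a difference of -0.20 ± 0.10 (adjusted p = 0.14).

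The abu and pqn genes encode proteins rich in glutamine and asparagine or in short repeats, many of them known as parts of the pharyngeal cuticle. Their list gave 14 lower and 1 higher call of 50 (30%, against 7.07% of all genes). Its median was -0.01, so the calls fell on a subset. abu-10 had 12.9, 18.7 and 13.7 CPM in CA-AAK-2, against 63.7, 58.6 and 64.1 CPM in CA-CRTC-1. The N2 mean was 47.03 CPM, nearer to CA-CRTC-1, and the difference was -2.02 ± 0.15 (limma, adjusted p = 4.1e-07). abu-15 followed at 11.1 CPM in CA-AAK-2 and 51.4 CPM in CA-CRTC-1, against 38.5 CPM in N2. pqn-31 differed in its place relative to N2, with means of 1.69 CPM in CA-AAK-2, 19.1 CPM in CA-CRTC-1 and 0.907 CPM in N2. Several of these genes have close copies, and how reads were divided among them is not known.

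Of 6 yolk genes, 3 were called lower in CA-AAK-2. The vitellogenins are lipoproteins that the intestine makes and oocytes take up, and their genes are switched on as larvae become adults. vit-5 had 38.2, 67.3 and 50.2 CPM in CA-AAK-2, against 352, 396 and 298 CPM in CA-CRTC-1. No library overlapped, and N2 averaged 276 CPM. The difference of -2.76 ± 0.38 (limma, adjusted p = 0.00013) was called without any 1 library. vit-2, the most abundant but one, had 790, 1056 and 858 CPM in CA-AAK-2 and 2137, 2198 and 2011 CPM in CA-CRTC-1, a difference of -1.24 ± 0.32 (adjusted p = 0.0099). Its call was lost whichever library was left out, with differences of -1.36 to -1.15, and under 7 of the other 10 settings tried. All 6 genes had values below those of CA-CRTC-1 in every library, a feature of 19.8% of genes tested. 3 of the 6 were called (vit-5, vit-4 and vit-2), or 1 to 2 with any 1 library left out. Against N2, the 6 genes gave 6 lower calls in CA-AAK-2 and 1 in CA-CRTC-1, which was vit-3.

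The lists of intestinal identity genes and of vacuolar proton pump subunits had smaller median differences than the yolk genes (-1.27). Of 27 intestinal identity and brush-border genes, 3 were lower (11.1%, against 5.47% of all genes) and 0 higher, with a median of -0.29. ifb-2 encodes an intermediate filament of the intestinal terminal web, and had 224, 245 and 244 CPM in CA-AAK-2, against 353, 399 and 361 CPM in CA-CRTC-1. Its N2 mean was 444 CPM, above both strains, and the difference was -0.64 ± 0.08 (limma, adjusted p = 5.4e-05). ifo-1, the organiser of these filaments, averaged 59.96 CPM in CA-AAK-2 and 101 CPM in CA-CRTC-1, close to 103 CPM in N2. elt-2, the transcription factor gene that defines the intestine, was not called, with a difference of -0.14. vha-5, a membrane subunit of the vacuolar proton pump, was the single call of 21 pump genes (4.76%, against 7.07% of all genes). It had 84.8, 88.4 and 79.3 CPM in CA-AAK-2, against 164, 178 and 173 CPM in CA-CRTC-1. The pump list had a median of -0.34. vha-5 was chosen after its values were seen; its N2 mean of 113 CPM lay between the strains.

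**Figure D3:**
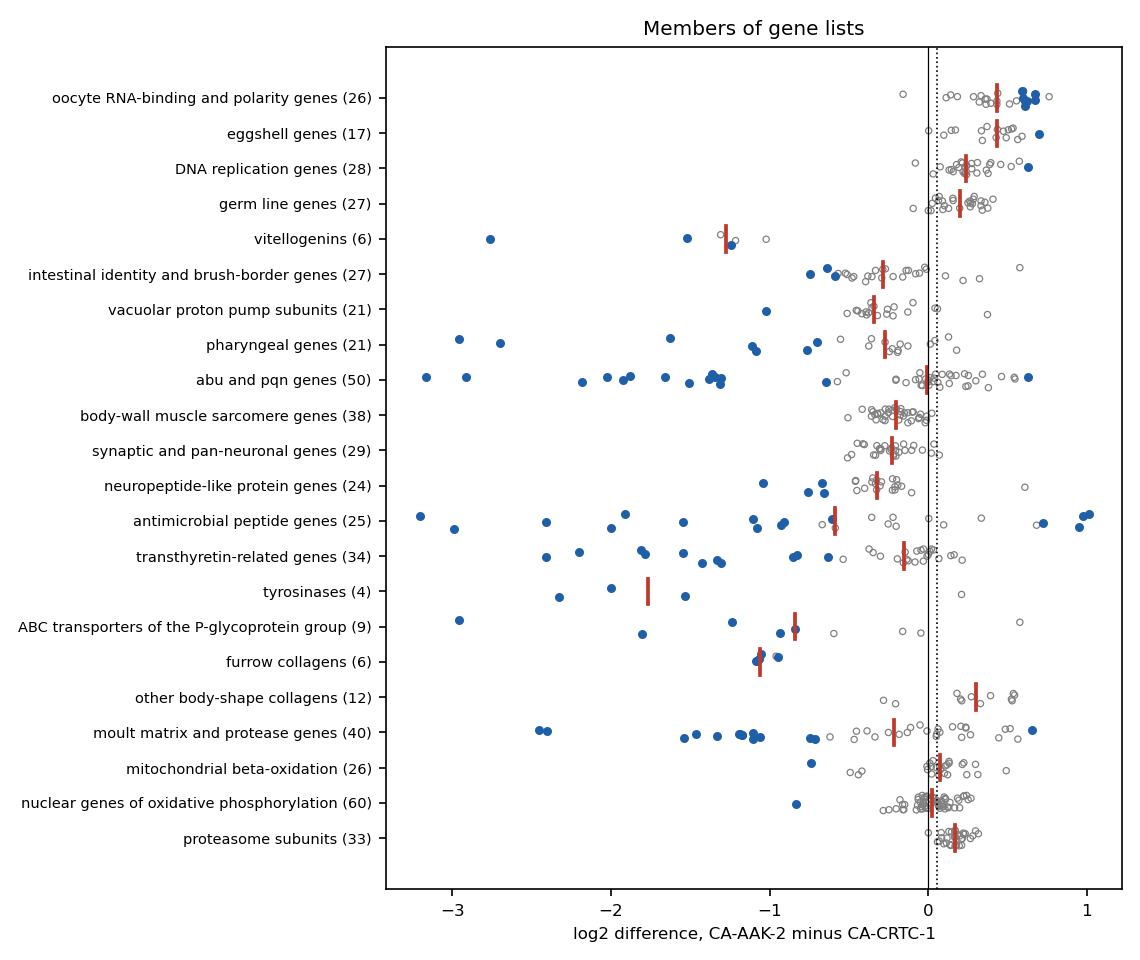
Log2 difference, CA-AAK-2 minus CA-CRTC-1, of the tested members of 22 gene lists, with the number tested in brackets; filled points passed the test, open points did not, red bars are list medians, the solid line is 0 and the dotted line is the median of all genes (0.06). Pharyngeal, abu and pqn and transthyretin-related genes have a tail of filled points to the left, body-wall muscle and proteasome genes have none, and oocyte and eggshell genes lie almost entirely to the right of 0.

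Genes of the moult and cuticle separated into levels. Furrow collagens form the circumferential grooves of the cuticle and are made in a short pulse before each moult. dpy-7 had 42.9, 33.6 and 39.0 CPM in CA-AAK-2, against 86.4, 72.9 and 83.4 CPM in CA-CRTC-1. N2 was lowest, with a mean of 7.89 CPM. The direct difference was -1.06 ± 0.25 (limma, adjusted p = 0.0062), whereas the differences from N2 were 2.24 in CA-AAK-2 and 3.31 in CA-CRTC-1. The 6 furrow collagens (dpy-2, dpy-3, dpy-7, dpy-8, dpy-9 and dpy-10) had direct differences of -1.09 to -0.95 and none overlapped between the strains. Of all genes tested, 19.8% were lower in CA-AAK-2 without overlap. 5 of the 6 were called directly, but 0 to 2 were called with any 1 library left out and 0 with a constant prior, and all 6 were called higher than N2 in each strain. Their summed level was 195 to 256 CPM in CA-AAK-2, 442 to 507 CPM in CA-CRTC-1 and 36.05 to 55.9 CPM in N2.

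Several genes of the temporary matrix that shapes a new cuticle had that order of levels. fbn-1, a fibrillin-like gene, had 14.2, 13.7 and 15.2 CPM in CA-AAK-2, against 92.3, 62.4 and 82.2 CPM in CA-CRTC-1. N2 averaged 4.13 CPM, and the direct difference was -2.40 ± 0.32 (limma, adjusted p = 9.5e-05). The mucin-like gene dpy-6 averaged 4.81 ± 1.17 CPM in CA-AAK-2 and 28.7 ± 6.64 CPM in CA-CRTC-1 (SD, n = 3 each), against 1.43 CPM in N2. mlt-7, a peroxidase gene needed for moulting, was at 48.4 CPM in CA-AAK-2 and 110 CPM in CA-CRTC-1, but its N2 mean of 62.0 CPM lay above CA-AAK-2. Of 40 matrix and protease genes, 14 were lower and 1, the cathepsin Z gene cpz-1, was higher (37.5%, against 7.07% of all genes). Their median was -0.22. The lower count was 6 without CA-AAK-2 replicate 2, CA-CRTC-1 replicate 1 or CA-CRTC-1 replicate 3, and 9 without CA-AAK-2 replicate 3. Of 17 moulting clock regulators, limma and edgeR called 0, with 8 at an unadjusted p under 0.05 and a median of -0.12.

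Collagens of the col family gave 37 lower and 9 higher calls of 106 (43.4%, against 7.07% of all genes), and 24 lower calls without CA-CRTC-1 replicate 1. Their median was -0.24, and 41 of the 106 had a difference above 0. The summed level of the family was alike, at 41407 to 48337 CPM in CA-AAK-2 and 41161 to 48408 CPM in CA-CRTC-1. col-103 averaged 22.96 CPM in CA-AAK-2 and 149 CPM in CA-CRTC-1, against 12.7 CPM in N2. col-98 averaged 15.3 CPM in CA-AAK-2 and 107 CPM in CA-CRTC-1, against 4.60 CPM in N2. Sequence similarity within the family makes the division of reads uncertain. Of 12 other body-shape collagens, limma and edgeR called 0 directly, with 5 at an unadjusted p under 0.05 and a median of 0.30. rol-6, one of these and a gene often used as a marker of transformation, averaged 337 CPM in CA-AAK-2 and 410 CPM in CA-CRTC-1, against 175 CPM in N2. Hedgehog- and patched-related genes, many of them active in the epidermis, gave 10 lower and 3 higher calls of 52 (25%, against 7.07% of all genes). Their median was 0.05, with 6 lower calls without CA-CRTC-1 replicate 3. wrt-8 was among the higher ones, at 51.2, 43.4 and 47.7 CPM in CA-AAK-2, against 15.95, 20.9 and 22.7 CPM in CA-CRTC-1 (difference 1.25 ± 0.11, adjusted p = 3.2e-06). Its N2 mean was 35.9 CPM. The difference from N2 was 0.40 in CA-AAK-2, which was not called, and -0.85 in CA-CRTC-1, which was called. wrt-8 lies near clec-230 on chromosome V (15342054 to 15344581 and 15347847 to 15349144 in WBcel235).

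Several genes differed from N2 in both strains while the direct difference was not called. The adult cuticle collagen gene bli-1 had 349, 268 and 311 CPM in CA-AAK-2 and 379, 314 and 375 CPM in CA-CRTC-1, against 57.6, 52.8 and 54.5 CPM in N2. The strains overlapped each other and both lay far above N2. Its direct difference was -0.21 ± 0.24, with a 95% interval of -0.71 to 0.30. grl-15 averaged 70.9 CPM in CA-AAK-2, 63.1 CPM in CA-CRTC-1 and 12.9 CPM in N2. Among the falls, ugt-64, a UDP-glucuronosyltransferase gene of detoxification, averaged 35.3 CPM in CA-AAK-2 and 40.6 CPM in CA-CRTC-1, against 80.5 CPM in N2 (direct difference -0.20 ± 0.10). col-152 averaged 29.5 CPM in CA-AAK-2 and 34.5 CPM in CA-CRTC-1, against 85.1 CPM in N2. A direct difference that misses the threshold does not show that the strains were equal.

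At the other end, 14 genes were called on opposite sides of N2. 12 were lower than N2 in CA-AAK-2 and higher than N2 in CA-CRTC-1, and 2 were the other way round. None of the 14 direct calls was lost when any 1 library was left out. Choosing genes on opposite sides of N2 makes the direct difference large, so this was nearly fixed by the choice. Whether the calls against N2 held without a library or under other scalings was not examined. Some were near the threshold, such as clec-230 in CA-AAK-2, with a difference from N2 of 0.61 (limma, adjusted p = 0.0057). pgp-14, a transporter gene of the pharynx, had 6.32, 10.7 and 6.69 CPM in CA-AAK-2, against 58.6, 68.2 and 63.0 CPM in CA-CRTC-1. N2 lay between at 37.8, 36.2 and 36.9 CPM, without overlap. The difference from N2 was -2.19 in CA-AAK-2 and 0.76 in CA-CRTC-1, and the direct difference was -2.96 ± 0.15 (limma, adjusted p = 1.9e-08). tyr-2, a tyrosinase gene, had 49.2, 71.6 and 49.1 CPM in CA-AAK-2 and 224, 228 and 222 CPM in CA-CRTC-1, with N2 at 109, 105 and 116 CPM. asp-12, an aspartic protease gene, averaged 26.2 CPM in CA-AAK-2 and 118.9 CPM in CA-CRTC-1, against 52.04 CPM in N2. The peroxidase gene skpo-3 averaged 31.6, 124 and 65.7 CPM in CA-AAK-2, CA-CRTC-1 and N2. The collagen genes col-7, col-62 and col-179 and K10H10.4, K07E1.1, Y62H9A.5, F02D8.4 and W01F3.2 completed the 12. clec-230 and the cytochrome P450 gene cyp-37B1 were the 2 higher in CA-AAK-2, and cyp-37B1 averaged 15.5 CPM in CA-AAK-2 and 5.78 CPM in CA-CRTC-1, against 9.18 CPM in N2. For asp-12, tyr-2 and skpo-3 the double strain had a higher mean than CA-CRTC-1, at 195, 237 and 150 CPM.

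Among the rises in CA-AAK-2 were argk-1 and hmit-1.2, genes of energy and of water balance. argk-1, an arginine kinase gene whose enzyme stores phosphate for rapid ATP supply, had 81.0, 69.1 and 73.7 CPM in CA-AAK-2, against 35.8, 38.9 and 29.1 CPM in CA-CRTC-1. N2 averaged 38.1 CPM, at the CA-CRTC-1 level, and the double strain was lowest at 16.3 CPM. The direct difference was 1.11 ± 0.17 (limma, adjusted p = 0.0003). hmit-1.2, a myo-inositol transporter gene of the osmotic response, had 19.9, 21.7 and 22.1 CPM in CA-AAK-2, against 5.04, 5.47 and 7.13 CPM in CA-CRTC-1. The N2 mean was 7.59 CPM and the difference was 1.78 ± 0.15 (adjusted p = 1.6e-06). gpdh-1, which makes the osmolyte glycerol, averaged 38.4 CPM in CA-AAK-2 and 22.5 CPM in CA-CRTC-1, but N2 stood above both at 57.5 CPM. The osmotic list of 19 genes gave 2 higher and 2 lower calls (21.1%, against 7.07% of all genes). Its median was -0.17, and 5 of the 19 had a difference above 0. It gave 4 lower calls without CA-AAK-2 replicate 3. The lower calls included aqp-8, an aquaporin gene, at 8.92 CPM in CA-AAK-2 and 27.02 CPM in CA-CRTC-1, against 7.62 CPM in N2. Other rises were unrelated to this theme. fbxa-192, an F-box A gene, averaged 13.7 CPM in CA-AAK-2, against 4.11, 4.15 and 4.52 CPM in CA-CRTC-1, the double strain and N2. Its difference was 1.61 ± 0.14 (limma, adjusted p = 2.2e-06). F-box A genes gave 3 higher and 0 lower calls of 28 (10.7%). taf-11.2 averaged 15.7 CPM in CA-AAK-2, 7.05 CPM in CA-CRTC-1 and 6.62 CPM in N2.

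Of 26 oocyte genes, 7 were higher in CA-AAK-2 (26.9%, against 1.6% of all genes) and 0 lower, with a median of 0.44. The count was 1 to 3 with any 1 library left out, 2 with median-ratio scaling and 4 with equal totals. cey-2, a Y-box RNA-binding protein gene, had 936, 934 and 873 CPM in CA-AAK-2, against 601, 631 and 585 CPM in CA-CRTC-1. N2 averaged 600 CPM, and the difference was 0.59 ± 0.10 (limma, adjusted p = 0.0007). Its call was lost without CA-AAK-2 replicates 1 or 2 or CA-CRTC-1 replicate 3, and under both of these scalings. Of 17 eggshell genes, 15 had CA-AAK-2 values all above those of CA-CRTC-1, as did 26.1% of all genes, and 1, egg-1, was called; it was not called without 5 of the 6 libraries, CA-AAK-2 replicate 1 being the exception. Against N2, the eggshell list gave 13 higher and 0 lower calls in CA-AAK-2 and 5 and 0 in CA-CRTC-1.

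Of 78 sperm genes, 16 were higher (20.5%, against 1.6% of all genes) and 0 lower in CA-AAK-2, with a median of 0.41. Their count was 9 without CA-AAK-2 replicate 2 and 3 without CA-CRTC-1 replicate 3. sss-1, a sperm gene, had 216, 236 and 217 CPM in CA-AAK-2, against 144, 156 and 109 CPM in CA-CRTC-1, where replicate 3 was lowest. Its difference was 0.72 ± 0.12 (limma, adjusted p = 0.00057), and the call was lost without that replicate. The summed sperm level was 7703 to 8356 CPM in CA-AAK-2, 4849.7 to 6461 CPM in CA-CRTC-1 and 6019 to 7296 CPM in N2. Major sperm protein genes are nearly identical copies, so values of single msp genes are uncertain. Of 27 germ line genes, limma and edgeR called 0, with 14 at an unadjusted p under 0.05, 26 of 27 above 0 and a median of 0.20. glh-1, a germ granule helicase gene, differed by 0.02.

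The X chromosome differed from the autosomes. Over 1279 X-linked genes the median difference was -0.16, and 23% of them were above 0. Over 9147 autosomal genes the median was 0.08, and 63.3% were above 0. X-linked genes took 8.84, 8.96 and 8.899% of CPM in CA-AAK-2, against 10.2, 10.1 and 10.2% in CA-CRTC-1. N2 had 9.89, 9.84 and 9.77%. The 2 strains did not overlap, with means of 8.897 ± 0.06% and 10.1 ± 0.05% in CA-AAK-2 and CA-CRTC-1 (SD, n = 3 each; exact permutation test, two-sided, p = 0.1, the smallest that 3 against 3 allows). aak-2 is itself X-linked, and without it the CA-AAK-2 shares were 8.58, 8.70 and 8.63%. X-linked genes are largely silent in the germ line of worms. The medians of the oocyte, eggshell and sperm lists described above were 0.44, 0.44 and 0.41. Those of the germ line and DNA replication lists were smaller, at 0.20 and 0.24. Outside the yolk, egg, sperm, replication and germ line lists, the median was -0.155 over 1272 X-linked genes and 0.077 over 8973 autosomal genes. These lists hold few of the genes tested, and the part of germ cells in the X-linked difference was not tested.

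**Figure D4:**
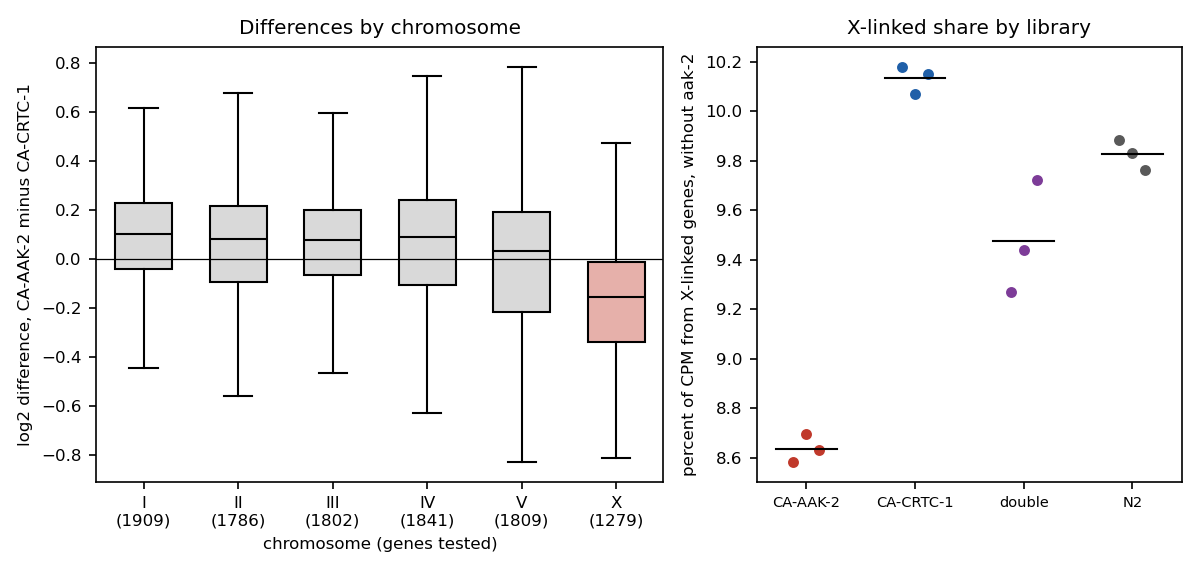
Left, box plots of the log2 difference, CA-AAK-2 minus CA-CRTC-1, by chromosome, with the number of genes tested in brackets; boxes span the quartiles, lines are medians, whiskers reach 1.5 times the quartile range and points beyond are not drawn. Right, percent of CPM from X-linked genes other than aak-2 in each library, with strain means as bars, on an axis that does not start at 0. The X box lies below 0 with a median of -0.16, and the 3 CA-AAK-2 libraries sit at 8.58 to 8.70%, below all others.

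Of 61 monoamine and neuropeptide genes tested, 8 were lower in CA-AAK-2 and 0 higher (13.1%, against 7.07% of all genes). The study's title names a catecholamine signal, and octopamine is the worm's counterpart of noradrenaline. tbh-1, which makes octopamine, had 8.84, 11.4 and 9.09 CPM in CA-AAK-2, against 21.4, 20.8 and 20.6 CPM in CA-CRTC-1. The groups did not overlap, N2 averaged 16.9 CPM, and the difference was -1.07 ± 0.23 (limma, adjusted p = 0.0037). This call held only when CA-AAK-2 replicate 2 was the library left out; without each of the other 5 it was lost, with differences of -1.08 to -1.01. tdc-1, which makes tyramine, the precursor of octopamine, had 42.8, 45.8 and 42.3 CPM in CA-AAK-2 and 34.4, 35.4 and 34.1 CPM in CA-CRTC-1, a difference of 0.33 ± 0.13 that was not called. amx-2, a monoamine oxidase gene, averaged 28.6 CPM in CA-AAK-2 and 45.5 CPM in CA-CRTC-1, against 59.0 CPM in N2, and its call was lost without CA-AAK-2 replicate 1. tbh-1 and amx-2 were the calls among 9 monoamine genes, of 25 in the tables, that passed the 5 CPM filter.

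Of 24 neuropeptide-like genes outside the defence group, 4 were lower (16.7%, against 5.47% of all genes) and 0 higher, with a median of -0.33. nlp-15 had 10.1, 11.8 and 9.90 CPM in CA-AAK-2, against 20.1, 18.4 and 16.406 CPM in CA-CRTC-1. CA-AAK-2 was at the N2 mean of 10.6 CPM, and the difference was -0.76 ± 0.13 (limma, adjusted p = 0.00097). nlp-67 averaged 6.22 CPM in CA-AAK-2 and 13.004 CPM in CA-CRTC-1, close to 13.05 CPM in N2. Of 28 FMRFamide-like and insulin-like peptide genes, 2 were lower, flp-13 and flp-3, a share of 7.14% that is close to the 7.07% of all genes. flp-13, a peptide gene of stress-induced sleep, averaged 10.4 CPM in CA-AAK-2 and 17.4 CPM in CA-CRTC-1, against 11.5 CPM in N2. The list gave 1 to 4 lower calls with any 1 library left out, 4 without CA-AAK-2 replicate 3 and 1 without CA-AAK-2 replicate 2 or CA-CRTC-1 replicates 2 or 3.

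Of 80 genes of glycolysis, the TCA cycle, the glyoxylate and gluconeogenesis route and propionate breakdown, limma and edgeR called 0, with 30 at an unadjusted p under 0.05 and a median of -0.01. icl-1, the glyoxylate enzyme of worms, had 1003, 1152 and 923 CPM in CA-AAK-2, against 978, 831 and 791 CPM in CA-CRTC-1. The groups overlapped and the difference, 0.24 ± 0.10, was not called (adjusted p = 0.067). Of 26 mitochondrial beta-oxidation genes, 1 was lower, the fasting-induced acyl-CoA synthetase gene acs-2, at 24.1, 21.3 and 29.6 CPM in CA-AAK-2, against 36.99, 41.1 and 47.6 CPM in CA-CRTC-1. The acs-2 difference was -0.74 ± 0.16 (limma, adjusted p = 0.0036), and its call was lost without CA-AAK-2 replicates 1 or 2 or CA-CRTC-1 replicates 2 or 3. Of 60 nuclear genes of oxidative phosphorylation, 1 was called, mai-1, an inhibitor of the ATP synthase, at 5.80 CPM in CA-AAK-2 and 10.7 CPM in CA-CRTC-1; it was chosen after its values were seen.

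Fatty acid synthesis and elongation gave 2 lower calls of 23, with a median of -0.10. This share of 8.7% is close to the 7.07% of all genes. pod-2, which encodes acetyl-CoA carboxylase, an enzyme that AMPK phosphorylates in many animals, had 311, 281 and 277 CPM in CA-AAK-2, against 472, 433 and 471 CPM in CA-CRTC-1. N2 averaged 384 CPM between the strains, and the difference was -0.66 ± 0.09 (limma, adjusted p = 0.00011). elo-5, an elongase gene of branched fatty acids, averaged 85.3 CPM in CA-AAK-2 and 132 CPM in CA-CRTC-1, and its call was lost without CA-AAK-2 replicate 1 or CA-CRTC-1 replicate 2. Lipases gave 3 higher and 3 lower calls of 12 (50%). lips-3 averaged 86.3 CPM in CA-AAK-2 and 52.8 CPM in CA-CRTC-1, against 87.4 CPM in N2, whereas lips-17 averaged 7.68 and 20.3 CPM, against 15.9 CPM in N2.

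Stress and detoxification lists lay on both sides of the 7.07% called over all genes. Of 24 genes of the insulin receptor pathway and its longevity targets, 3 were lower (12.5%), with a median of -0.15. dod-24, a target of the DAF-16 factor, had 19.4, 21.5 and 21.9 CPM in CA-AAK-2, against 50.4, 57.2 and 61.4 CPM in CA-CRTC-1. N2 was lowest at 12.9 CPM, and the difference was -1.404 ± 0.19 (limma, adjusted p = 0.0001). lea-1, a desiccation protein gene, averaged 236 CPM in CA-AAK-2 and 412 CPM in CA-CRTC-1, against 228 CPM in N2. Glutathione transferases gave 3 lower calls of 20 (15%), and gst-4, a reporter of oxidative stress, was not called at 15.4 CPM in CA-AAK-2 and 20.8 CPM in CA-CRTC-1. UDP-glucuronosyltransferases gave 7 lower and 1 higher call of 38 (21.1%), with a median of -0.29, and 2 lower calls without CA-CRTC-1 replicate 3 or 4 without CA-AAK-2 replicate 1 or CA-CRTC-1 replicate 2. msra-1, a repair enzyme for oxidised methionine, averaged 517 CPM in CA-AAK-2 and 486 CPM in CA-CRTC-1 (difference 0.09 ± 0.09). Of 28 antioxidant enzyme genes 1 was lower (3.57%), and of 24 mitochondrial and ER stress genes limma and edgeR called 0, with 10 at an unadjusted p under 0.05. Of 176 ribosomal, mitochondrial ribosomal and proteasome genes, limma and edgeR called 0, with 36 (20.5%) at an unadjusted p under 0.05 and a median of 0.08. Of 33 autophagy genes both called 0 as well, with 10 at an unadjusted p under 0.05 and a median of -0.03.

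A few genes were nearly absent from 1 strain. praf-3 (chromosome IV, 8379983 to 8381947 in WBcel235) had 83.9, 76.4 and 94.1 CPM in CA-AAK-2, against 1.55, 1.49 and 1.46 CPM in CA-CRTC-1. N2 averaged 79.9 CPM and the double strain 0.908 CPM, so both strains with the CRTC-1 transgene lacked most of its RNA. Its difference of 5.41 ± 0.11 was the largest among the genes tested (limma, adjusted p = 9e-14). Past D2096.9, which was below the filter and whose end overlaps that of praf-3 on the other strand, D2096.11 averaged 9.61 CPM in CA-AAK-2 and 3.60 CPM in CA-CRTC-1, a difference of 1.302 ± 0.14, and timm-17B.2, the next, averaged 5.94 and 0.644 CPM. On the other side, nap-1 differed by 0.36 and D2096.7 by 0.55, whereas D2096.6 beyond them differed by -0.40 ± 0.09 (adjusted p = 0.0063), at 59.6 CPM in CA-AAK-2 and 78.7 CPM in CA-CRTC-1. Neighbours were looked at after the value of praf-3 was seen.

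nspe-7 was nearly absent from CA-CRTC-1 and low in N2. It encodes a small peptide of a nematode-specific family, and had 25.6, 27.4 and 23.6 CPM in CA-AAK-2, against 0.471, 0.836 and 0.637 CPM in CA-CRTC-1. Every CA-AAK-2 library was far above every library of CA-CRTC-1 and of N2, whose mean was 1.62 CPM, and the double strain had 23.7, 10.1 and 10.8 CPM. The difference was 4.51 ± 0.26 (limma, adjusted p = 5.2e-08), and it was called whichever library was left out. The family has several members, and how reads were divided among them is not known.

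A pair of genes below the 5 CPM filter had no read at all in CA-CRTC-1 and were singled out after their values were seen. 2L52.1 (chromosome II, 1848 to 5514 in WBcel235) had 773 reads over the 3 CA-AAK-2 libraries and 0 over the 3 CA-CRTC-1 libraries, which allows up to 3 reads. The double strain had 704 and N2 856. Its neighbours differed in both directions. osta-1, below the filter, averaged 6.08 CPM in CA-AAK-2 and 1.17 CPM in CA-CRTC-1, whereas best-4, also below it, averaged 0.779 and 3.01 CPM. best-3 averaged 7.23 CPM in CA-AAK-2 and 14.55 CPM in CA-CRTC-1, a difference of -0.95 ± 0.17 (limma, adjusted p = 0.0009). T01C8.9 had 411 reads in CA-AAK-2 and 0 in CA-CRTC-1, with 557 in the double strain and 0 in N2. It is a non-coding RNA gene on the minus strand of X (16797115 to 16797174), inside an intron of aak-2 transcripts a and b, which run on the plus strand from 16796087. The library kit does not keep the strand, so reads of T01C8.9 and of unspliced or antisense RNA from aak-2 cannot be told apart.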

How the data were processed

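RNA selected for poly(A) tails was taken from 4 micrograms of total RNA of whole L4 animals (integrity number 10) and read for 50 cycles from both ends; the kit leaves strand unmarked. The tables hold CPM that the authors deposited after edgeR scaling for depth and composition over all samples, per the series text. The submitters' processing notes name CASAVA 1.8.2, cutadapt, TopHat2 2.0.8 and HTSeq. The series text gives both ce6 and WS238 and a filter at 1 CPM, yet 743 deposited genes average less than that; how the filter was applied is not known. Coordinates are from WBcel235 and only place genes and neighbours. A table has 14508 entries; for 72 of them the identifier is retired, and 3 repeated entries with the same values were kept once.

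Every value was a whole multiple, within 0.02 reads, of its column's lowest step (100% of values), which returns the counted reads (30887631 to 48989013 per library). Floors of 3 reads cover counting error only. The direct difference came from a single linear model of log2(CPM + 0.5), a scale that understates changes of low genes, fitted by limma 3.58.1 (R 4.3.3) with a trended prior to all 12 libraries and to genes averaging 1 CPM or more over them; replicate number was not in the model. p-values were adjusted by Benjamini-Hochberg over the 10532 genes tested. The N2 comparisons used the same fit and rules. The procedure was tested on simulated data. The thresholds of 5 CPM, 1.5-fold and 0.01 are those of the series text. Alternatives were other pseudocounts, filters, scalings, priors and sample sets, a replicate block, edgeR 4.0.16 run on reads, and omission of single libraries.

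The comparison and the 61 gene lists were chosen with earlier results of these data known, so list counts are descriptions. The genes named are 14 fixed ones, the 12 largest rises and 12 largest falls among genes that have a standard symbol and do not overlap between groups, up to 4 called members of each list with at least 2, up to 6 per direction called against N2 in both strains but not directly, and up to 8 per direction called on opposite sides of N2. The text does not describe all of them. Some left out had calls that depend on 1 library, but others, such as ugt-44 and msp-65, were called whichever library was left out. The text says where a gene outside the rule was added. Further members are named where a small list is accounted for.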

Additional observations from a re-analysis of the deposited data

How the results depend on the processing

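The direct count of 745 calls became 1130 with a filter of 1 CPM and 1270 with no filter, and the count of genes lower in CA-AAK-2, 576, became 909 and 1038 under these. Both alternatives test more genes. The count for CA-CRTC-1 against N2, 924, became 1436 and 1644, and its higher calls, 696, became 1169 and 1366. Against N2, scaling also moved the counts by direction by over 1.5 times: with median-ratio scaling CA-AAK-2 had 518 higher and 701 lower, against 850 and 456, and CA-CRTC-1 had 357 lower, against 228, or 354 with edgeR. All other settings kept the total counts within 1.5 times: the direct count was 656 with a pseudocount of 2 CPM, 771 with one of 0.1 CPM, 748 with median-ratio scaling, 737 with equal totals, 817 with only the 6 libraries compared, 665 with a constant prior and 771 with edgeR. Leaving out each library gave 584 to 696 direct calls (129 to 181 higher, 450 to 567 lower), 1113 to 1376 for CA-AAK-2 against N2 and 767 to 891 for CA-CRTC-1 against N2. The X median minus the autosomal median was -0.25 to -0.21 over all settings.

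Of 141 genes given by the naming rule, 122 were called, 87 kept the call in every setting, 34 lost it without at least 1 library, 1 lost it only in another setting and 0 changed direction. Same-numbered replicates of the strains correlated at -0.06, 0.20 and 0.10 in their deviations from the group means, and differently numbered ones at -0.34 to 0.25, so the numbers were not taken to pair the samples. With a replicate block there were 792 direct calls, 744 of them shared with the 745.

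Depth limits genes near the 5 CPM filter, and 3 libraries a strain limit small differences.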
